A study of Homo sapiens with 12 samples.

Results

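The comparison described here set PANC-1 pancreatic cancer cells that had been co-cultured with tumor-associated macrophages (TAMs) under normoxia (NPM group) against PANC-1 cells cultured alone under normoxia (NPC group). It used 6 of the 12 arrays of the series, 3 in each group, and 25865 of the 34487 features, namely those whose mean over the 6 arrays lay above the 25th percentile of mean log2 intensity (7.65). PANC-1 is an established line derived from a human pancreatic ductal adenocarcinoma. PANC-1 cells of all groups were kept in DMEM with fetal bovine serum, penicillin and streptomycin, and the monocytes behind the TAMs in RPMI medium. In the NPM group PANC-1 cells shared a transwell for 4 days with macrophages, which a porous membrane kept apart from them, and the RNA was taken from the PANC-1 cells. By the study's methods the TAMs were a model made from 1 monocytic line, THP-1, differentiated with PMA and polarised with IL-4 and IL-13, so they were not macrophages taken from a tumor. The other 6 arrays hold the same pair of groups under hypoxia (HPC and HPM), at an oxygen level that the sources do not state. Replicates were described as independent experiments, 3 per group. The arrays do not include PANC-1 cells cultured with unpolarised macrophages or with another cell type. On these arrays the TAM phenotype and the presence of a second cell population therefore cannot be told apart.

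Cancer cells that receive interferons or inflammatory cytokines signal through STAT and IRF factors and NF-kB, and switch on genes for antigen presentation, antiviral defence and chemokines. Cell division has its own programme: E2F factors open the genes for DNA replication at the start of S phase, and genes for mitosis are held shut in resting cells by the DREAM complex and opened in dividing ones by MYB-MuvB with FOXM1, through cell cycle homology regions that often lie near CCAAT boxes. In pancreatic tumors macrophages are a major stromal cell population and a source of such cytokines. Levels below are log2 intensities, and a difference is the NPM mean minus the NPC mean on that scale, with its standard error (SE). Levels of different genes are not compared, because probes differ in brightness.

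Of the 25865 features, 346 (1.34%) passed limma's test at an adjusted p under 0.05, of which 155 (0.599%) rose and 191 (0.738%) fell in co-culture. On all 346 the 3 NPM arrays lay wholly above or wholly below the 3 NPC arrays, which was also the case for 25% of all features tested. The features that passed had changed by at least 1.65-fold, and 194 of them by more than 2-fold, 90 upward and 104 downward. In 25 of the 346 features 1 group had a mean under 7.65, NPC in 7 rises and NPM in 18 falls, so these passed the filter only through the group in which they were high. An annotation named the gene for 183 of them, 71 genes that rose and 101 that fell, and the other 163 features are unnamed here. At an unadjusted p under 0.05, 6.98% of features were higher and 10.7% lower, and the median difference over all features was -0.02. The size of the list rests on all 6 arrays: with any 1 array left out, between 0 and 11 features passed, and with the third replicate of both groups left out, 14 passed. The direction of all 346 held in each of the 6 fits that left out 1 array, each time at an unadjusted p under 0.05. Where the groups do not overlap, leaving out 1 array cannot reverse a direction. Those p-values reuse the arrays on which the 346 were picked, so neither result is separate support. Paired by replicate number (the replicate block), 827 features passed, among them all 346. Where another feature of the same gene was measured (25 genes, 33 features), 32 of the 33 had the same direction, and the exception was a second feature of TRIM7.

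**Figure D1:**
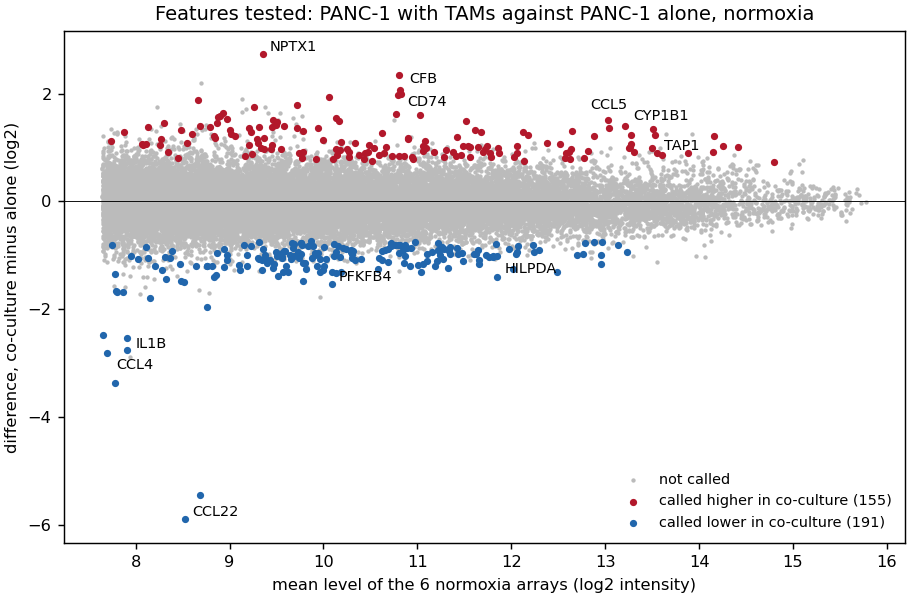
Mean level over the 6 normoxia arrays (x axis, log2 intensity) against the difference between co-culture and PANC-1 alone (y axis, log2) for the 25865 features tested, 1 dot each. The 155 features called higher and the 191 called lower are coloured, and CCL22 at -5.90 lies farthest from 0.

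All 6 markers chosen for PANC-1 cells were measured on every array, among them the keratins KRT8, KRT18, KRT19 and KRT7, and none passed the test (differences from -0.45 for KRT18 to 0.10 for VIM). Of 25 macrophage markers 17 were measured, 15 had means under the filter, and 8 of these, including LYZ, LCP1, ITGAM and C1QA, stayed under 7.65 on all 6 arrays. The summed level of the 17 was 12.5 to 12.6 in NPC and 12.7 to 12.8 in NPM, and most of it was CD68, a lysosomal protein that PANC-1 cells alone also gave (11.72 to 11.98 in NPC, 12.10 to 12.23 in NPM). Of the measured macrophage markers 8 had higher and 9 had lower means in co-culture. Lymphocyte markers gave no feature above the filter (5 of 11 measured), and of the endothelial ones only ESAM did (difference 0.00, SE 0.30). In RNA from whole cultures, fewer cells in a state and less RNA per cell cannot be told apart. The third replicates stood apart: the first principal component (42.2% of the variance) placed NPC3 and NPM3 above the other arrays of their groups, and the second (26.6%) placed all NPC arrays above all NPM arrays.

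Among the features above the filter the largest rise was that of NPTX1, an extracellular neuronal pentraxin. Its level was 7.83, 8.32 and 7.81 in the NPC arrays and 10.80, 10.53 and 10.82 in the NPM arrays. The groups were separated by more than 2 log2 units, a difference of 2.73 (SE 0.19) or 6.63-fold (adjusted p = 0.00914). CFB, complement factor B of the alternative pathway, stood at 9.70, 9.87 and 9.79 in NPC and at 11.94, 12.15 and 11.46 in NPM, a 4.18-fold rise (difference 2.06, SE 0.20, adjusted p = 0.0296). CD74, the invariant chain that guides MHC class II molecules and also serves as the receptor for the cytokine MIF, stood between 9.70 and 9.92 in NPC and between 11.77 and 11.80 in NPM (difference 1.98, SE 0.13, adjusted p = 0.00914). The other CD74 features differed by 2.35 and 0.87, and the first of them passed the test as well. Groups without overlap were a condition for naming these genes, so their separation is no further support.

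**Figure D2:**
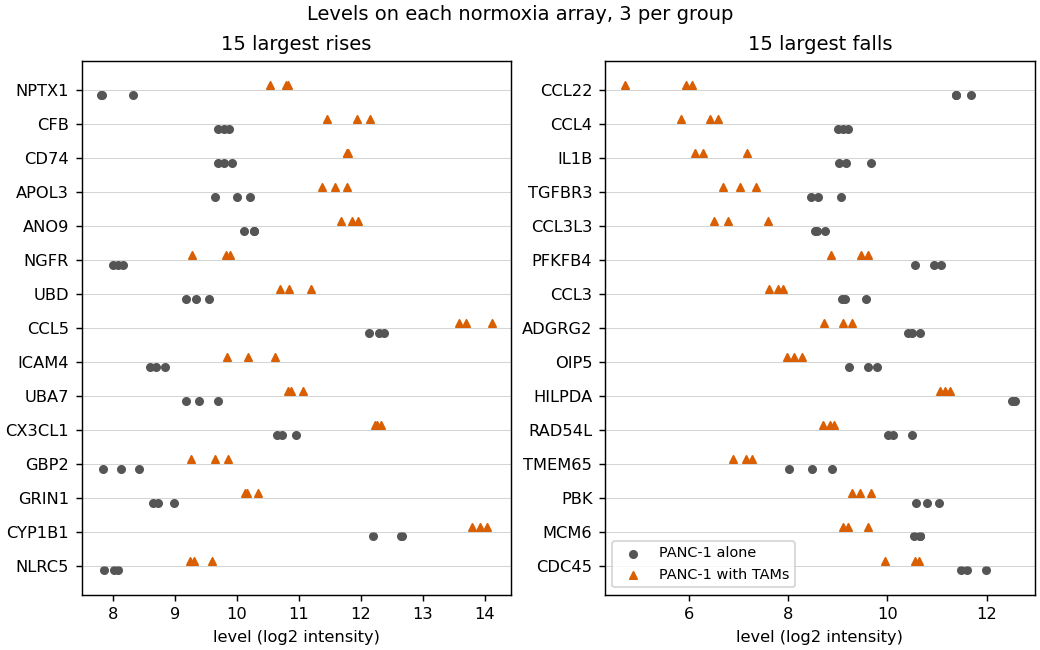
Level (log2 intensity) on each of the 6 normoxia arrays for the 15 genes with the largest rise (left) and the 15 with the largest fall (right) among named features that passed the test, circles for PANC-1 alone and triangles for PANC-1 with TAMs, 3 each. In each of the 30 genes the circles and the triangles do not overlap, as the rule for naming them required.

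Among genes known to be induced by interferon gamma, 15 of 25 were tested, 4 rose and none fell. The share that passed was 26.7%, against 1.34% of all features. The median difference was 0.86 against -0.02 over all features, and all 15 differences were above 0. APOL3 (difference 1.62, SE 0.19, adjusted p = 0.0296) and APOL1 (1.09, SE 0.14, adjusted p = 0.0296) belong to a family of apolipoprotein L genes that act against intracellular pathogens. UBD encodes FAT10, a ubiquitin-like tag that marks proteins for the proteasome. Its level was 9.34, 9.56 and 9.18 in NPC and 10.84, 11.19 and 10.70 in NPM (difference 1.55, SE 0.18, adjusted p = 0.0296). GBP2, a guanylate-binding GTPase, was at 7.84, 8.43 and 8.14 in NPC and at 9.86, 9.64 and 9.27 in NPM (difference 1.45, SE 0.22, adjusted p = 0.0388). With the replicate block 8 of the 15 passed, against 827 of all 25865 features. APOL2, GBP3 and GBP5, named here after their values were seen, were among the members added.

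The antiviral genes usually induced by type I interferon gave 6 rises and no falls among 35 tested (17.1% passed, against 1.34% of all features). Their median was 0.56, and 32 differences were above 0. PARP14 and PARP12 encode mono-ADP-ribosyltransferases and DTX3L a ubiquitin ligase. PARP14 lay between 11.43 and 11.52 in NPC and between 12.67 and 12.84 in NPM (difference 1.28, SE 0.13, adjusted p = 0.0296). DHX58, the RIG-I-like receptor LGP2, was at 8.28, 8.56 and 7.85 in NPC and 9.55, 9.42 and 9.37 in NPM (difference 1.21, SE 0.20, adjusted p = 0.0426). The other rises of the list were PARP12 (1.02), DTX3L (0.83), the dynamin-like GTPase MX1 (1.31) and XAF1 (1.14), all with adjusted p between 0.0312 and 0.0495. UBA7, which activates the ubiquitin-like protein ISG15 for conjugation, was among the 15 largest rises (9.39, 9.70 and 9.18 against 10.88, 11.07 and 10.82, difference 1.50, SE 0.18, adjusted p = 0.0296).

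MHC class I presentation moved in the same direction, with 5 rises, no falls and a median of 0.61 among 20 tested members. Of these members 25% passed, against 1.34% of all features. The rises covered successive steps of the pathway: NLRC5, the transactivator of class I genes (difference 1.40, SE 0.16, adjusted p = 0.0296), PSMB9 and PSME1, parts of the immunoproteasome that cuts peptides (0.98 and 0.79), and TAP1 and TAP2, which together carry the peptides into the endoplasmic reticulum (1.23 and 0.98). TAP1 was at 13.06, 12.59 and 13.09 in NPC and at 14.24, 14.02 and 14.15 in NPM (SE 0.18, adjusted p = 0.0355), and TAP2 at 12.62, 12.82 and 12.83 against 13.84, 13.69 and 13.69 (SE 0.14, adjusted p = 0.0337). TAP2, TAP1 and PSMB9 lie close together in the RefSeq gene order, though not necessarily next to one another. The class I heavy chain HLA-C differed by 0.71 and HLA-B by 0.73, with adjusted p of 0.16 and 0.20, and HLA-B passed with the replicate block (adjusted p = 0.044).

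Several of the rising genes carry the interferon-stimulated response element (ISRE, the letters GAAA, any 2 bases, then GAAA) close to their start. The stretches below are RefSeq sequence of build GRCh38.p14, read in the direction of the gene from 5′ to 3′, for the 3 genes with the largest rise that have the element before their most upstream listed start. The capitals mark the element, which lies on the opposite strand in CFB and TAP1 and so reads there as TTTC, any 2 bases, TTTC, and TAP1 holds a pair of overlapping matches. The positions are chr6:31945915-31946004 on the plus strand for CFB, chr3:122680770-122680838 on the plus strand for PARP14 and chr6:32853783-32853878 on the minus strand for TAP1.
CFB: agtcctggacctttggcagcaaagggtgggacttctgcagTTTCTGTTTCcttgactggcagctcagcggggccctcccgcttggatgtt
PARP14: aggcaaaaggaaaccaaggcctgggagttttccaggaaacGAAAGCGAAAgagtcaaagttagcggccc
TAP1: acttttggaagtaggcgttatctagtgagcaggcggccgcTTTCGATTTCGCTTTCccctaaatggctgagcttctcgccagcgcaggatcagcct

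Counted over windows from 250 bases before to 50 bases after each listed start, on both strands, the ISRE was present at 12 of 66 starts of genes that rose (18.2%), at 1 of 101 starts of genes that fell (0.990%) and at 2.73% of the 12212 starts of all genes tested. The 11 rising genes that hold it are BCL2A1, BTN3A3, CFB, DTX3L, MX1, PARP12, PARP14, PSME1, SLC37A1, TAP1 and TAP2. The gamma-activated site (TTC, any 3 bases, GAA) was at 10.6% of the starts of rising genes, at 3.96% of those of falling genes and at 6.09% of all. The NF-kB site (GGGA, any base, TTTCC) was at 4.55%, 0.00% and 0.573%, its matches among rising genes being in IL32, STAP2 and TAP1. Promoter windows were listed for 43 of the 71 rising and 77 of the 101 falling genes, and a match is a run of letters, not a measured binding site.

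**Figure D3:**
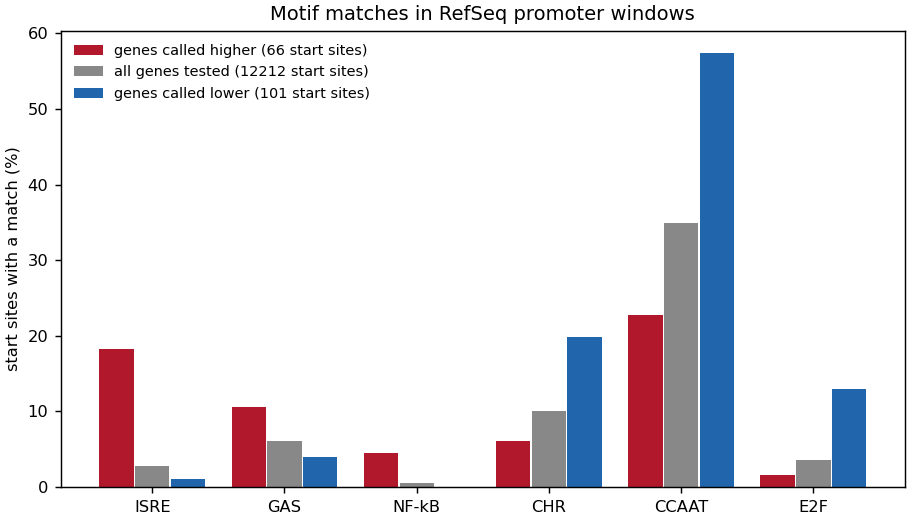
Share of start sites (%, y axis) whose window from 250 bases before to 50 bases after the start holds each motif, for genes called higher (66 starts), all genes tested (12212) and genes called lower (101). The ISRE bar is tallest for genes called higher (18.2%), and the CHR, CCAAT and E2F bars are tallest for genes called lower (19.8%, 57.4% and 12.9%).

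Of the complement genes tested 22.2% passed, and of the inflammasome and pyrin genes 33.3%, against 1.34% of all features. All that passed were higher, and both lists are short. Of 9 complement genes tested CFB and C3 passed, both higher. C3, the central component that CFB helps to cleave, stood at 10.82, 11.06 and 10.87 in NPC and at 11.76, 12.03 and 11.70 in NPM (difference 0.91, SE 0.15, adjusted p = 0.0454). Of 9 inflammasome and pyrin genes CASP1, CASP4 and CARD16 rose. CASP1, the protease that matures interleukin 1 beta, was at 8.52, 8.55 and 8.81 in NPC and at 9.94, 10.17 and 9.93 in NPM (difference 1.39, SE 0.15, adjusted p = 0.0296), and its other features differed by 1.53, 1.21 and 0.92, of which the last did not pass. CASP4, which senses bacterial lipopolysaccharide in the cytosol, lay between 11.21 and 11.25 in NPC and between 12.18 and 12.23 in NPM (difference 0.98, SE 0.13, adjusted p = 0.0296). CARD16, a decoy made of the CASP1 recruitment domain, differed by 0.98 (SE 0.15, adjusted p = 0.0402). CASP5 differed by as much (0.98, SE 0.20) without passing (adjusted p = 0.065, and 0.036 with the replicate block). CASP4, CASP1 and CARD16 lie close together in the gene order, though not necessarily next to one another. IL18, the other classical substrate, differed by -0.20 and PYCARD, the adaptor, by -0.07, neither passing.

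Targets of NF-kB gave 1 rise among 21 tested and no fall (4.76% passed, against 1.34% of all features). Of the 21 differences 20 were above 0, and the median was 0.41. With the replicate block 3 of the 21 passed, all higher, against 827 of all 25865 features. The rise was SOD2, the mitochondrial superoxide dismutase, at 13.21, 13.24 and 13.07 in NPC and 14.09, 14.07 and 13.96 in NPM (difference 0.87, SE 0.13, adjusted p = 0.0402). IL32 differed by 1.25 on its brightest feature, which the list used (adjusted p = 0.065, and 0.036 with the replicate block). Dimmer features of IL32 passed, with differences of 1.225 and 1.337 (adjusted p = 0.0416 each). NFKB1 and IRAK2, which encode a subunit and a kinase of the pathway, differed by 0.63 and 0.49 with adjusted p of 0.11 and 0.12. VCAM1, an adhesion molecule with known NF-kB sites, had a mean of 6.48 and so fell under the filter. Its levels were 5.21, 5.01 and 4.99 in NPC and 8.12, 7.79 and 7.76 in NPM, without overlap.

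Chemokines split in both directions: of 12 tested, 2 rose and 3 fell (41.7% passed, against 1.34% of all features), and the median was -0.05. CCL5, which draws T cells and monocytes, was at 12.38, 12.30 and 12.13 in NPC and at 13.58, 14.11 and 13.69 in NPM (difference 1.52, SE 0.18, adjusted p = 0.0296). CX3CL1, fractalkine, a membrane-bound ligand of CX3CR1 on monocytes, was at 10.64, 10.95 and 10.73 against 12.33, 12.23 and 12.26 (difference 1.50, SE 0.14, adjusted p = 0.0296). CCL22, a ligand of CCR4 on regulatory T cells, was at 11.69, 11.39 and 11.38 in NPC and at 6.07, 5.96 and 4.71 in NPM, where it lay below the 5th percentile of each array. It fell by 5.90 on the log2 scale (SE 0.35, adjusted p = 0.00914), a size that rests on NPM values near the dim end of the arrays. CCL4 and CCL3, neighbouring genes for macrophage inflammatory proteins, fell by 2.81 (SE 0.21, adjusted p = 0.012) and 1.50 (SE 0.18, adjusted p = 0.0296). CCL4 was at 9.01, 9.20 and 9.10 in NPC and 6.43, 5.85 and 6.59 in NPM. The NPM means of CCL22, CCL4, CCL3L3 and IL1B were under the filter level, so these genes were tested only because NPC was high, and without detection flags the sizes of their falls are uncertain. CCL3L3, outside the list and a near copy of CCL3 whose probes may share signal, fell by 1.66 (SE 0.27, adjusted p = 0.0416). CCL5 and CX3CL1 thus moved upward, and CCL22, CCL3 and CCL4 downward.

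IL1B, the inflammatory cytokine interleukin 1 beta, followed the falling chemokines. It was at 9.16, 9.67 and 9.02 in NPC and at 6.14, 6.30 and 7.17 in NPM (fell by 2.75, SE 0.30, adjusted p = 0.0296, with the limit just given). IL1B was the lone member of 15 tested interleukins and receptors to pass (6.67%, against 1.34% of all features). Its processing enzyme CASP1 rose in the same arrays. Of the other members IL15RA, which presents interleukin 15 to lymphocytes, differed by 0.90 (adjusted p = 0.064, and 0.036 with the replicate block). IL1B and the 4 falling chemokine genes are also made by activated macrophages, and the part of macrophage RNA in these values was not tested. Of the macrophage markers LCP1 (7.16, 7.49 and 7.22 in NPC, 3.98, 4.18 and 3.99 in NPM) and LYZ (6.75, 6.92 and 6.67 against 4.98, 5.51 and 5.42) were lower without overlap. So were FCER1G (7.31, 8.06 and 7.65 against 6.92, 6.29 and 6.87) and CD53 (7.31, 6.91 and 7.79 against 6.39, 5.71 and 6.76). All of these had means under the filter. ADGRE1 (8.56, 8.32 and 7.04 against 9.38, 9.61 and 8.97), CD68 and C1QA (6.33, 5.99 and 6.36 against 7.19, 7.06 and 6.70) were higher without overlap. The rest of the 17 measured macrophage markers overlapped. As 25% of all features tested did not overlap either, the separation of these markers is no result about them. ADGRE1, which encodes the macrophage receptor EMR1, differed by 1.34 (SE 0.39, adjusted p = 0.14, and 0.043 with the replicate block).

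Most of the remaining large rises belonged to no list. NGFR, the low-affinity neurotrophin receptor p75, was at 8.01, 8.09 and 8.17 in NPC and 9.83, 9.27 and 9.88 in NPM (difference 1.58, SE 0.19, adjusted p = 0.0296). GRIN1, the obligatory subunit of NMDA glutamate receptors, rose on all 3 of its features, by 1.43 (SE 0.15), 1.36 and 1.79. ANO9, of the anoctamin family of scramblases and channels, lay between 10.11 and 10.28 in NPC and between 11.68 and 11.95 in NPM (difference 1.61, SE 0.14, adjusted p = 0.0292). ICAM4, a red cell adhesion molecule that binds integrins, differed by 1.51 (SE 0.21, adjusted p = 0.0329). CYP1B1, a cytochrome P450 induced through the aryl hydrocarbon receptor, was at 12.64, 12.20 and 12.67 against 13.79, 13.92 and 14.03 (difference 1.41, SE 0.18, adjusted p = 0.0296). HMOX1, heme oxygenase 1, was the one NRF2 target of 18 to rise (9.93, 10.18 and 9.85 against 11.35, 11.30 and 11.11, difference 1.27, SE 0.15, adjusted p = 0.0296), and UGDH was the one to fall (by 0.87, SE 0.16, adjusted p = 0.0493). Further rises lie outside the naming rule and were picked after their values were seen. They were the adhesion molecule L1CAM (1.06), the macrophage growth factor CSF1 (0.80) and LRRC32, which anchors latent TGF-beta (1.19). The apoptosis inhibitor BCL2A1 (1.16) and the butyrophilins BTN3A1 and BTN3A3 (1.00 each) were others.

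DNA replication was the list with the lowest median. Of 41 genes tested 12 fell and none rose (29.3% passed, against 1.34% of all features), the median was -0.82, and all 41 differences were below 0. The falls covered origin recognition (ORC1, ORC6), licensing (CDC6, MCM2, MCM3, MCM4, MCM6), firing (CDC45), the fork (PCNA, RFC3, POLE2) and its checkpoint (CLSPN). MCM6, a subunit of the replicative helicase, was at 10.66, 10.66 and 10.54 in NPC and at 9.20, 9.10 and 9.60 in NPM (fell by 1.31, SE 0.17, adjusted p = 0.0296). MCM3, another subunit, was at 12.06, 12.26 and 12.39 against 10.99, 11.08 and 11.13 (fell by 1.17, SE 0.15, adjusted p = 0.0296). CLSPN, claspin, which relays the ATR signal to CHEK1, lay between 12.03 and 12.05 in NPC and between 10.87 and 11 in NPM (fell by 1.11, SE 0.13, adjusted p = 0.0296). ORC6 fell by 1.00 (SE 0.13) and CDC45 by 1.31 (SE 0.23). The enzymes that supply deoxynucleotides gave 2 falls among 25 tested (8%). RRM2, the regulatory subunit of ribonucleotide reductase, fell by 1.24 (SE 0.15, adjusted p = 0.0296), while RRM1 and TYMS differed by -1.09 and -1.02 without passing (adjusted p = 0.056 and 0.057, and 0.036 each with the replicate block).

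Mitosis followed, with 13 falls and no rise among 62 genes tested (21% passed, against 1.34% of all features). The median was -0.78, and all 62 differences were below 0. BUB1B, the spindle checkpoint kinase BUBR1, was at 9.99, 9.98 and 9.95 in NPC and at 8.92, 8.86 and 8.89 in NPM (fell by 1.09, SE 0.13, adjusted p = 0.0296). TTK, the kinase MPS1 at the top of that checkpoint, was at 9.57, 9.66 and 9.84 against 8.71, 8.41 and 8.40 (fell by 1.18, SE 0.16, adjusted p = 0.0296). SPC24, of the NDC80 complex that holds microtubules at kinetochores, fell by 1.08 (SE 0.14) and CCNA2, cyclin A2 of S phase and G2, by 1.05 (SE 0.14), both with adjusted p = 0.0296. With the replicate block 28 of the 62 passed, against 827 of all 25865 features. OIP5 and PBK were among the 15 largest falls: OIP5, which loads the centromeric histone CENP-A, fell by 1.41 (SE 0.19, adjusted p = 0.0296) and PBK, a mitotic kinase, by 1.33 (SE 0.18, adjusted p = 0.0296). The cyclin, CDK inhibitor and E2F list held 1 fall among 20, E2F8 (fell by 1.20, SE 0.16, adjusted p = 0.0296), a repressor that itself follows E2F1. CDKN1A, the inhibitor p21, differed by 0.63 (adjusted p = 0.063). Of 32 histone genes tested 1 fell, the replication-independent H2AZ1 (by 1.00, SE 0.17, adjusted p = 0.0454), and the median was -0.07. By the study's methods the cDNA was primed with oligo dT, which copies messages that carry a poly(A) tail. Histone messages without such a tail may therefore be missed, so the median does not show whether the histones of S phase changed.

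The falling genes carry a different set of promoter letters, shown here for the 3 falling members of the mitosis list with the largest fall that hold the cell cycle homology region (CHR, TTTGAA on either strand) and for the 2 replication genes with the largest fall that hold an E2F site (TTTCCCGC or TTTGGCGC on either strand), each before the most upstream listed start. PRC1 passed on the feature with its smaller p and not on its brightest one, so it is not among the 13 counted above, and the falling genes ZWINT and CEP55, which also hold a CHR there, are not in the list. Sequence and build are as above, and the capitals mark the CHR or the E2F site. The positions are chr15:40161006-40161068 (plus strand) for BUB1B, chr15:90994536-90994595 (minus strand) for PRC1, chr15:59105077-59105145 (plus strand) for CCNB2, chr2:135876486-135876635 (minus strand) for MCM6 and chr6:52284869-52284956 (minus strand) for MCM3.
BUB1B: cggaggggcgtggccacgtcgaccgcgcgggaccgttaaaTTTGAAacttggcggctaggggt
PRC1: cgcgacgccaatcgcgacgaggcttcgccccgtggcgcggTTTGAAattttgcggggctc
CCNB2: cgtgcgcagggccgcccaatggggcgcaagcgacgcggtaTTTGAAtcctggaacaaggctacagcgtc
MCM6: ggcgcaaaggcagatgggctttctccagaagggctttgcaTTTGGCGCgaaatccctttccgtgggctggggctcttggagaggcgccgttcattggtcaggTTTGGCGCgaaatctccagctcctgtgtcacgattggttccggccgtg
MCM3: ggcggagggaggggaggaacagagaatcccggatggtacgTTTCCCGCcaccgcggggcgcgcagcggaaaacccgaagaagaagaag

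The CHR of BUB1B, PRC1 (fell by 0.93) and CCNB2 (fell by 0.81) ends 18, 15 and 24 bases before the start, and the MCM6 stretch holds a pair of E2F sites 83 to 152 bases before it. Over all windows the CHR was at 19.8% of the 101 starts of falling genes, 6.06% of the 66 starts of rising genes and 10.1% of all 12212 starts. The CCAAT box (CCAAT) was at 57.4%, 22.7% and 34.9%, and the E2F site at 12.9%, 1.52% and 3.50%. The 12 falling genes with an E2F match are CDC6, CLSPN, MCM3, MCM6, OIP5, PCLAF, PCNA, POLE2, PSMC3IP, RFC3, STMN1 and TRIM7. Motifs were counted separately, so a start can hold several.

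DNA repair gave 5 falls and no rise among 36 tested (13.9% passed, against 1.34% of all features), with a median of -0.66 and 35 differences below 0. RAD54L, a motor protein of homologous recombination, was at 10.11, 10.50 and 10.01 in NPC and at 8.92, 8.70 and 8.84 in NPM (fell by 1.39, SE 0.17, adjusted p = 0.0296). FANCA, of the Fanconi anemia core complex, was at 9.77, 10.19 and 9.99 against 8.68, 8.63 and 8.84 (fell by 1.27, SE 0.16, adjusted p = 0.0296). RMI2, of the BLM dissolvasome, fell by 1.22 (SE 0.17, adjusted p = 0.0319) and UNG, uracil DNA glycosylase, by 0.97 (SE 0.16, adjusted p = 0.0448). TFRC, the transferrin receptor that imports iron, was the one reference gene of 28 to pass (11.64, 11.59 and 11.32 against 10.44, 10.39 and 10.15, fell by 1.19, SE 0.16, adjusted p = 0.0296). The median over those 28 reference genes was -0.02.

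**Figure D4:**
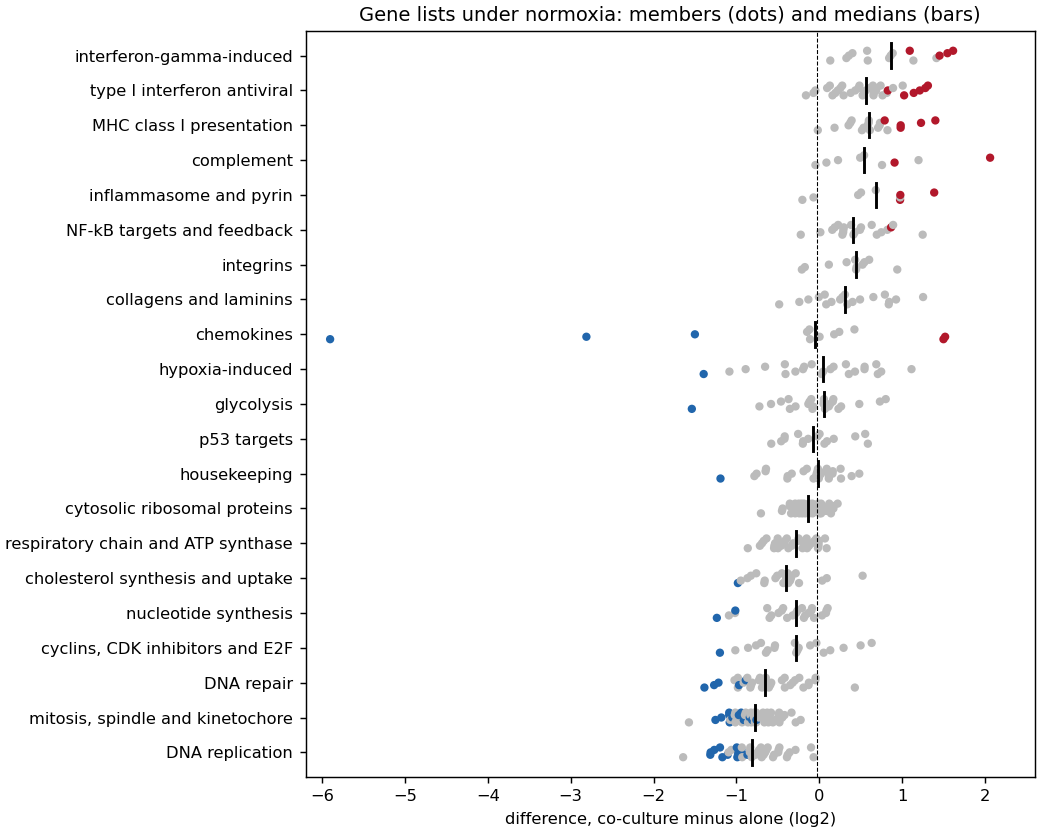
Difference between co-culture and PANC-1 alone under normoxia (x axis, log2) for each tested member of 21 gene lists, 1 dot a gene, with the list's median as a bar and the median of all features as a dashed line. Coloured dots passed the test, and the interferon lists lie to the right of the line while replication and mitosis lie to the left.

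The share that passed was 4% for glycolysis, 4.35% for hypoxia-induced genes and 4.17% for cholesterol genes, against 1.34% of all features. Each share is a single gene. Of 25 glycolysis genes 1 passed, PFKFB4, a kinase that makes fructose-2,6-bisphosphate: it was at 10.93, 11.08 and 10.56 in NPC and at 9.62, 9.47 and 8.86 in NPM (fell by 1.54, SE 0.24, adjusted p = 0.0404), and the median of the list was 0.05. PFKL, of the same list, differed by 0.80 (SE 0.15, adjusted p = 0.058, and 0.041 with the replicate block). With the block 1 glycolysis gene was higher and 1 lower. Of 23 genes usually induced by hypoxia 1 passed, HILPDA, an inhibitor of lipid droplet lipolysis, which fell from 12.57, 12.51 and 12.55 to 11.05, 11.15 and 11.26 (by 1.40, SE 0.13, adjusted p = 0.0296). The medians of both lists were 0.05, against -0.02 over all features. The respiratory chain had no member that passed, with 34 of 36 differences below 0 and a median of -0.29. Cholesterol synthesis and uptake had 1 fall among 24, ACAT2 (by 0.98, SE 0.17, adjusted p = 0.0454), a median of -0.40 and 21 differences below 0. At an unadjusted p under 0.05, 12 of the 24 were lower, against 10.7% of all features. With the replicate block 5 passed, all lower, against 827 of all 25865 features. TGFBR3, betaglycan, was the one of 26 TGF-beta pathway genes to pass (8.60, 9.07 and 8.46 against 7.03, 6.68 and 7.35, fell by 1.69, SE 0.23, adjusted p = 0.0318), and its NPM values were all under the filter level. Single rises came from MUC1 among 22 epithelial genes (0.95, SE 0.16, adjusted p = 0.0454) and GAA, acid alpha-glucosidase, among 29 lysosomal genes (0.86, SE 0.15, adjusted p = 0.0476).

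In 16 of the 39 lists with a tested member, no member passed. As only 1.34% of all features passed, a short list without any is not a result about its genes. They include p53 targets (median -0.08), fatty acid synthesis (-0.24), collagens and laminins (0.31), integrins (0.45), mesenchymal genes (0.14), the Wnt pathway (0.03), the EGF family (0.17), matrix proteases (0.22) and ribosomal proteins (-0.14). ITGA5, the fibronectin receptor subunit, came nearest among the integrins (0.94, SE 0.17, adjusted p = 0.051, and 0.036 with the replicate block). With the block 4 of 19 collagen and laminin genes passed, all higher, among them COL6A1 (1.25), against 827 of all 25865 features. The block also gave falls of FASN and FADS2 in fatty acid synthesis (by 0.78 and 0.76, adjusted p = 0.042 and 0.044) and of LGR4 in the Wnt list (by 1.09, adjusted p = 0.037), and a rise of HBEGF in the EGF family (1.15, adjusted p = 0.045). Of the remaining 15 largest falls, ADGRG2, an adhesion G protein-coupled receptor, fell by 1.48 (SE 0.18, adjusted p = 0.0296) and TMEM65, a mitochondrial membrane protein, by 1.35 (SE 0.24, adjusted p = 0.0484), with NPM values of 7.28, 7.15 and 6.89, under the filter level.

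The hypoxia arrays share no sample with the normoxia arrays. There 2.20% of the same features rose and 4.55% fell in co-culture. Of the 346 normoxia features 308 had the same direction under hypoxia, and 121 also passed there in that direction, which is 35% of the normoxia list and 6.92% of the 1748 features that passed under hypoxia. The interferon lists gave 3 rises each under hypoxia and their medians were 0.49 and 0.30, class I presentation 3 rises and 0.38. Mitosis gave 37 falls and a median of -0.78, and replication 7 falls and -0.34. NGFR (1.82), CCL5 (0.95) and the SOD2 feature with the smaller p (1.06 under normoxia, 1.49 under hypoxia) passed in both.

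The difference between the effects was tested as an interaction on all 12 arrays, and 1.29% of features passed, among them 54 of the 346. Of these 54, 32 had the opposite direction under hypoxia, 21 the same direction with a smaller size, and 1, CCNB1, the same direction with a larger size (fell by 0.76 under normoxia and 1.83 under hypoxia). The 54 were picked for their normoxia difference, and the interaction reuses those arrays. That choice favours smaller or opposite hypoxia differences, so this split was largely set in advance. HILPDA was at 13.30, 13.41 and 13.04 in HPC and at 14.04, 14.33 and 14.03 in HPM, a rise of 0.88, where normoxia gave a fall (interaction -2.28, SE 0.20, adjusted p = 0.000811). HMOX1 was at 10.88, 10.47 and 10.83 in HPC and at 10.34, 10.10 and 10.56 in HPM, with overlap (interaction 1.66, SE 0.24, adjusted p = 0.0109). CYP1B1 lay between 12.89 and 13.11 in HPC and between 12.83 and 13.08 in HPM (interaction 1.43, SE 0.22, adjusted p = 0.0137). UBD was at 8.89, 9.00 and 8.64 in HPC and at 8.92, 8.40 and 8.17 in HPM (interaction 1.89, SE 0.29, adjusted p = 0.0137). CCL22 fell from between 10.83 and 10.98 to between 9.26 and 9.55, so that its drop was smaller under hypoxia (interaction -4.38, SE 0.41, adjusted p = 0.00123, resting on the dim NPM values). Among the repair genes RAD54L, FANCA, RMI2 and UNG each passed the interaction, with hypoxia differences of -0.15, -0.02, 0.26 and 0.08. No replication gene of the 41 passed it, yet the medians of both lists were smaller in size under hypoxia. They were -0.66 and -0.30 for repair, and -0.82 and -0.34 for replication, under normoxia and hypoxia.

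**Figure D5:**
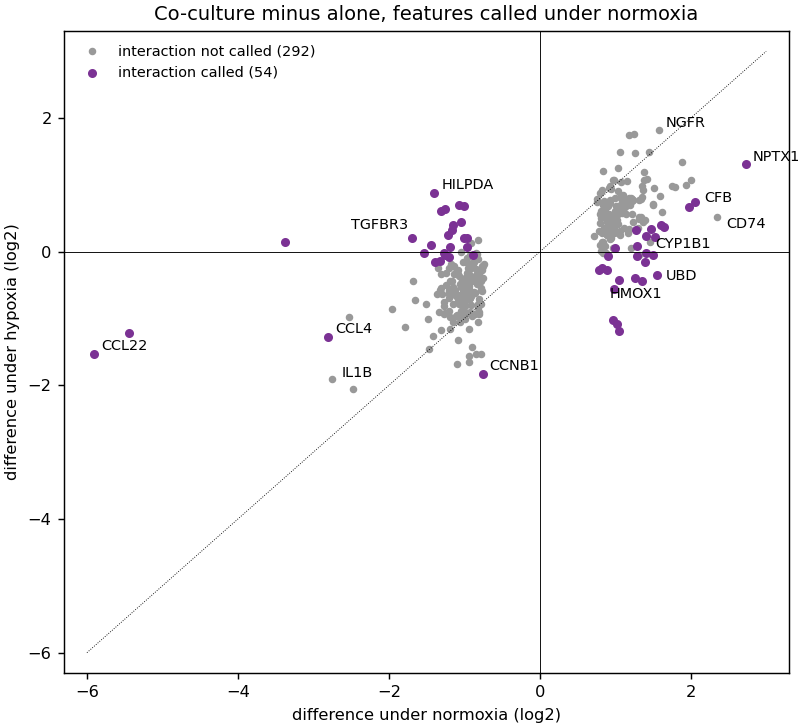
Difference between co-culture and PANC-1 alone under normoxia (x axis, log2) and under hypoxia (y axis, log2) for the 346 features called under normoxia, with the dotted line marking equal differences. The 54 features whose interaction passed the test are coloured, among them HILPDA above the horizontal axis (0.88) and CCL22 above the dotted line (-1.53).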

How the data were processed

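PANC-1 RNA was labelled with Cy3 and hybridised to 1-colour arrays. The deposited intensity values are on a linear scale, and the authors had made them by quantile normalization and RMA. The array is named differently in the series text (Arraystar, Agilent) and in the methods (Roche NimbleGen), and a filter on present or marginal flags is described for the study's clustering, without saying whether the deposited table was made with it. Here log2 was taken of the deposited values. Features above the 25th percentile of mean log2 intensity over the 6 normoxia arrays were fitted with limma 3.58.1 (R 4.3.3; lmFit and eBayes, two-sided, Benjamini-Hochberg over all 25865 features), and the same features were used for hypoxia and for the interaction. The platform annotation and RefSeq accessions named 14675 of 34487 features. Lists took the brightest feature of each gene. On simulated data for this comparison 19 of 50 features changed 2-fold and 39 of 50 changed 4-fold were recovered. Precision is limited by having 3 arrays a group.

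Named genes were the 15 largest rises and falls among named features that passed with non-overlapping groups (1 feature per gene, smallest p), up to 4 members with the smallest p of each of 40 lists, VCAM1 and CCL22, and other features of those genes. The members and lists were chosen with earlier results of these data known. Same-numbered arrays deviated together (r = 0.35, 0.34 and 0.56 between NPC and NPM), so the replicate number was tried as a block. Alternatives were another filter, repeated quantile normalization, median centring, all 12 arrays, trend and robust eBayes, the methods' t-test, features averaged per gene and each array left out. Some items among the named genes are not reported here.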

Additional observations from a re-analysis of the deposited data

Results flagged for a closer look

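The genes below are those named in the report whose co-culture effect differed between normoxia and hypoxia by the interaction test on all 12 arrays (limma, adjusted p under 0.05). The value is the log2 difference under normoxia minus that under hypoxia. Genes were named by their normoxia results, which favours larger differences there.

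Larger under normoxia and downward were CCL22 (-4.38), TGFBR3 (-1.90), CCL4 (-1.54), PFKFB4 (-1.53) and the repair genes RMI2 (-1.47), FANCA (-1.25), RAD54L (-1.24) and UNG (-1.04). Of these CCL22 and CCL4 also passed as lower under hypoxia. A second set belongs to the list of genes usually induced by hypoxia: HILPDA (-2.28), ANKRD37 (-2.32) and DDIT4 (-1.47), each with a negative difference under normoxia (-1.40, -1.08 and -0.89) and a positive one under hypoxia (0.88, 1.23 and 0.58), of which ANKRD37 and DDIT4 did not pass under normoxia. Larger under normoxia and upward were UBD (1.89), HMOX1 (1.66), ICAM4 (1.55), CYP1B1 (1.43), NPTX1 (1.42), CFB (1.32), CD74 (1.31), ANO9 (1.21), NLRC5 (1.17), C3 (0.97) and PARP14 (0.95). STC2 (1.53) and CLDN1 (1.16) passed the interaction without passing under normoxia. Of further features of genes the report names, CCNB1 (1.07) fell more under hypoxia, while SLC37A1 (1.20), a CASP1 feature (1.31), TRIM7 (-1.55) and PSMC3IP (-1.27) had the larger difference under normoxia.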

How the results depend on the processing

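The normoxia count of 346 rose to 827 with the replicate block, 1361 with all 12 arrays in one fit, 2795 with both, 1087 with trend and robust eBayes and 1026 with a filter at the 50th percentile, and was 8 without a filter (4 of them among the 346) and 118 by the methods' t-test after Benjamini-Hochberg (72 of them among the 346). It was 337 by the methods' t-test at an unadjusted p under 0.05 and over 2-fold. It ranged from 0 to 11 with 1 array left out and was 14 without the third replicates. Repeated quantile normalization (493), median centring (489), the 12-array filter (335) and features averaged per gene (296) stayed within 1.5 times. The hypoxia count of 1748 became 353 without a filter, 4353 with the replicate block, 2734 with trend and robust eBayes, 2714 with all 12 arrays, and 0 to 767 with 1 array left out. The interaction count of 333 became 156 without a filter, 724 with the replicate block, and 91 to 237 with 1 array left out. The cause of these shifts was not tested. Of the 164 named features 64 had passed. None of the 64 reversed in these fits, which was largely set in advance because they were picked on the same arrays. All 64 still passed with the replicate block. Without a filter 60 of them no longer passed, with 1 array left out between 57 and 64, and with median centring 1. With 3 arrays a group, 2-fold changes were recovered less often than 4-fold ones in simulated data.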
